A study of Mus musculus with 5 samples.

Results

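RNA polymerase II, the enzyme that transcribes protein-coding genes, was mapped in the liver of adult FVB mice and compared with brain, kidney, lung and spleen. The members described here are 55887 windows of the genome, out of 186413 windows obtained when the peaks of all 5 tissues were merged. They were chosen by the tissue label: a window reached 250 bp to either side of each of the 57816 peak positions listed for liver, and windows that overlapped were joined. Each tissue, freshly dissected, gave 1 library of DNA pulled down with an antibody against RNA polymerase II (ab5408 from Abcam), and no input library was used here. All groups share the FVB strain and the adult stage. The labels give no genotype other than the strain, no treatment, no age in weeks and no number of animals behind a library. With 1 library per tissue no test between tissues was possible, and intervals cover counting error only, not variation between libraries. The intervals treat reads as independent. Reads that carry no molecular identifier are not independent molecules, so the intervals may be too narrow.

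Polymerase collects near the start of an active gene and then travels through the gene body to beyond its end, so reads along a gene follow transcription in progress rather than the amount of RNA that has built up. Hepatocytes, the main cells of liver, make most plasma proteins and carry out the urea cycle, bile acid synthesis and much of the metabolism of sugars, lipids, amino acids and drugs. The kidney tubule shares some of this metabolism, gluconeogenesis in particular. A whole tissue mixes cell types, so fewer cells of a type and less polymerase per cell cannot be told apart in these libraries.

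The promoters of 7 genes on which the results turn are shown first, because 5 of them stood over 28-fold above every other tissue (Tat, Hamp, Alb, Ahsg and Fgb) and 2 were bound in kidney as well (Pck1 and G6pc). Each line gives the 150 bases before the gene's start, 5′ to 3′, from RefSeq on GRCm38.p6, matched by symbol. Capitals mark letter matches, on either strand, to TATAAA (the core of a TATA box), GTTAAT (part of a homeodomain factor motif) or CCAAT (the CCAAT box).
Tat: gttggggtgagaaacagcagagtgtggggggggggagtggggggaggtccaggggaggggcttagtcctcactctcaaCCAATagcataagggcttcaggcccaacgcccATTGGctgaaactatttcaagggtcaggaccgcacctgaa
Hamp: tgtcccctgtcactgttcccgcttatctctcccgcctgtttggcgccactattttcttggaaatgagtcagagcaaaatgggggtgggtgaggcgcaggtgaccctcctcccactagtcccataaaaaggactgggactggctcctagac
Alb: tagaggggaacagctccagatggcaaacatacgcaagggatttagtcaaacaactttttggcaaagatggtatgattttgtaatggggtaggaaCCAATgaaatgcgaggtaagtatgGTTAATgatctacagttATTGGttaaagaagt
Ahsg: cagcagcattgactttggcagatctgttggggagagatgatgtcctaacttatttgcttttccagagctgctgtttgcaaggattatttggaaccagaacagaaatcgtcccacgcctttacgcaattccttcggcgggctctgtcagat
Fgb: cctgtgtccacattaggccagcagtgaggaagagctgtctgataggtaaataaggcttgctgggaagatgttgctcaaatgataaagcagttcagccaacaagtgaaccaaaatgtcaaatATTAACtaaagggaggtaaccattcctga
Pck1: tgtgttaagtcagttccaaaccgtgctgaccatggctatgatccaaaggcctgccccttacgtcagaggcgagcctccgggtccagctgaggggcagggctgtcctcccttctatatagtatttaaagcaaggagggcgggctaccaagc
G6pc: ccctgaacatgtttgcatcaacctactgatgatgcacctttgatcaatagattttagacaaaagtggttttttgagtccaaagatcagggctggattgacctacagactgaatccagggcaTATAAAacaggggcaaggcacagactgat

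Tat and Alb each held 2 matches to CCAAT or its reverse complement ATTGG, Alb and Fgb each held 1 match to GTTAAT or ATTAAC, and G6pc held 1 match to TATAAA. Hamp, Ahsg and Pck1 held no match to these letters in this stretch. Of 32851 mouse promoters in the same table, 7.57% held TATAAA or TTTATA, 3.71% held GTTAAT or ATTAAC and 24.5% held CCAAT or ATTGG in the same 150 bases. Of the 38 named genes called liver-high below, 27 were in the table with 28 promoters, of which 7, 7 and 8 held these motifs in turn, or 25%, 25% and 28.6%. These genes were chosen by their liver reads, and no test was made. A match describes letters in the reference and is not a measured site.

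The liver library held 14964934 reads, and the other libraries held 10292262 to 13786536. Of the liver reads, 11.4% had their 5′ end in liver windows, against 6.54% of brain, 6.67% of kidney, 7.25% of lung and 4.03% of spleen reads. The median liver window held 18 liver reads, 6 brain reads, 11 kidney reads, 7 lung reads and 6 spleen reads. Because the windows were placed where liver had peaks, a higher liver count in them follows in part from the choice of windows. To compare counts, each library was divided by a scaling factor, the median of ratios over 8222 merged windows with at least 20 reads in every tissue. The spleen factor was 0.666, against 1.06 from its total reads, and the other 4 factors lay between 1.03 and 1.16. Spleen levels are therefore higher on this scaling than on one by total reads.

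A window was called liver-high over another tissue when it held 20 or more liver reads and its normalised count was 4 times that of the tissue or more, with counts under 3 set to 3. Of all liver windows, 11411 (20.4%) were liver-high over brain, 10340 (18.5%) over lung, 8452 (15.1%) over spleen and 6262 (11.2%) over kidney. Kidney was the closest tissue by this count. Among the 25400 windows with at least 20 liver reads, the median fold of liver was 1.93 over kidney, 2.64 over spleen, 2.91 over lung and 3.32 over brain. Against the mean of the 4 other tissues, 7249 windows (13%) were liver-high.

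**Figure D1:**
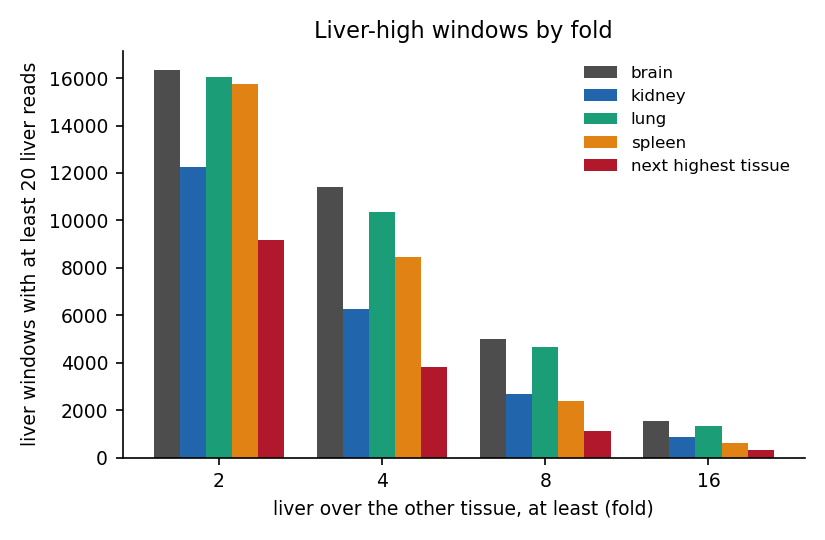
Number of liver windows with at least 20 liver reads (vertical axis) whose normalised count in liver was at least 2, 4, 8 or 16 times that of brain, kidney, lung, spleen or the next highest tissue (bars). At 4-fold the bars fall from 11411 over brain to 6262 over kidney, and 3807 windows exceeded the next highest tissue.

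Over the next highest tissue, and so over all 4, 3807 windows (6.81%) were liver-high. In 10 kb bins of the whole genome, which were not placed at liver peaks, 0.169% met the same rule. Such bins are wider than the windows, whose median length was 501 bp. The minimum of 20 liver reads was met by 229568 of 253117 bins and by 25400 of 55887 windows. The shares are therefore not directly comparable. A further 2060 windows were liver-high over brain, lung and spleen but not over kidney. In those the median fold of liver over kidney was 2.34, and kidney was the higher of the pair in 129. By contrast, 1192 windows missed the call over spleen alone, 219 over lung alone and 164 over brain alone. The count of liver-high windows is shown by fold and by tissue in the bar chart of liver windows.

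The tissue next to liver depended on the scaling. Among the 3807 windows it was spleen in 2311, kidney in 982, lung in 269 and brain in 245. In 991 of the windows with spleen next, spleen held fewer than 3 reads, so its level there was the value set by rule. With scaling by total reads, brain was next in 1651, kidney in 919, spleen in 719 and lung in 690, and 3403 of the 3807 windows were called under both scalings. Near the threshold, 87 windows had a fold of 3.9 to 4 and 211 of 4 to 4.1. In the opposite direction, windows with at least 20 reads in a tissue and a 4-fold lower level in liver were 64 for brain (0.115%), 123 for kidney (0.22%), 130 for lung (0.233%) and 92 for spleen (0.165%). Against each of the 4, 2 liver windows (0.00358%) held at least 20 reads in each other tissue with each level at least 4 times that in liver.

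Gene names were attached to 58 stretches of the chromosomes. Their positions come from general knowledge of the mm9 assembly, which the extent of the deposited coordinates fits, and not from an annotation of the files' build. Their order along 17 chromosomes was the same as in the RefSeq table for GRCm38.p6 in all 58 cases, and no coordinate was converted. That compares rank within a chromosome only, and a stretch alone on its chromosome matches by necessity. It therefore does not show that a stretch lies on its gene. Gene lengths in that table helped to set some stretches. Of these stretches, 44 were placed from recalled positions of liver genes, 11 were recognised at liver-high runs of windows, and 3 mark other tissues. The edges of many stretches follow the liver signal, so their excess is a description and not independent support for the names. A larger set of names had been measured before, and most of it was removed, with its values known, because of how the positions had been obtained. The counts of liver-high genes below therefore describe the stretches kept and are no tally over liver genes. Reads were summed over the whole stretch, and a stretch was called liver-high by the rule used for windows.

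Of the 44 recalled genes, 28 were liver-high over the next highest tissue, and 36 were at least 4-fold over the mean of the other 4. For 10 kb bins of the genome the same calls were made in 0.169% and 0.42%, and the median bin with at least 20 liver reads stood at 0.552 times the next highest tissue. The median fold of the 44 was 5.71. Of the 11 recognised at runs, 10 were liver-high, which follows from how they were found. The choice of scaling moved many folds. With scaling by total reads, 18 of the 55 liver gene stretches had a fold over the next tissue more than 1.5 times higher and none more than 1.5 times lower, among them Tat (154 in place of 99.5), Mir122 (111 in place of 71.6), Ahsg (43.4 in place of 28.3) and Cps1 (24 in place of 15.5). Spleen was then next in 14 of the 55 in place of 37, and lung in 19 in place of 4. For Alb, Ahsg and Fgb the next tissue became lung. At Apob, Fga, Fgg and Cyp2e1 it became kidney, as it did above the median level of 10 kb bins. That level was 7.5 normalised reads per kb in spleen, against 2.73 to 4.05 elsewhere. Spleen was near it at Cps1 (7.74), Apob (7.9), Pzp (7.94) and Cyp7a1 (8), and below it at Cyp3a11 (5.34) and Kng1 (5.17). Folds over spleen at such genes are close to folds over its background. With that level subtracted, spleen was next in 25 of the 55 and kidney in 18. The 3 markers of other tissues were lower in liver. Lrp2, the endocytic receptor megalin of the kidney tubule, held 848 liver reads and 10724 kidney reads. Snap25, a synaptic vesicle fusion protein of neurons, held 393 liver and 2278 brain reads, and Grin1, a subunit of the NMDA receptor, held 174 liver and 958 brain reads. Non-parenchymal liver cells were not analysed here, since none of their marker genes was placed.

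**Figure D2:**
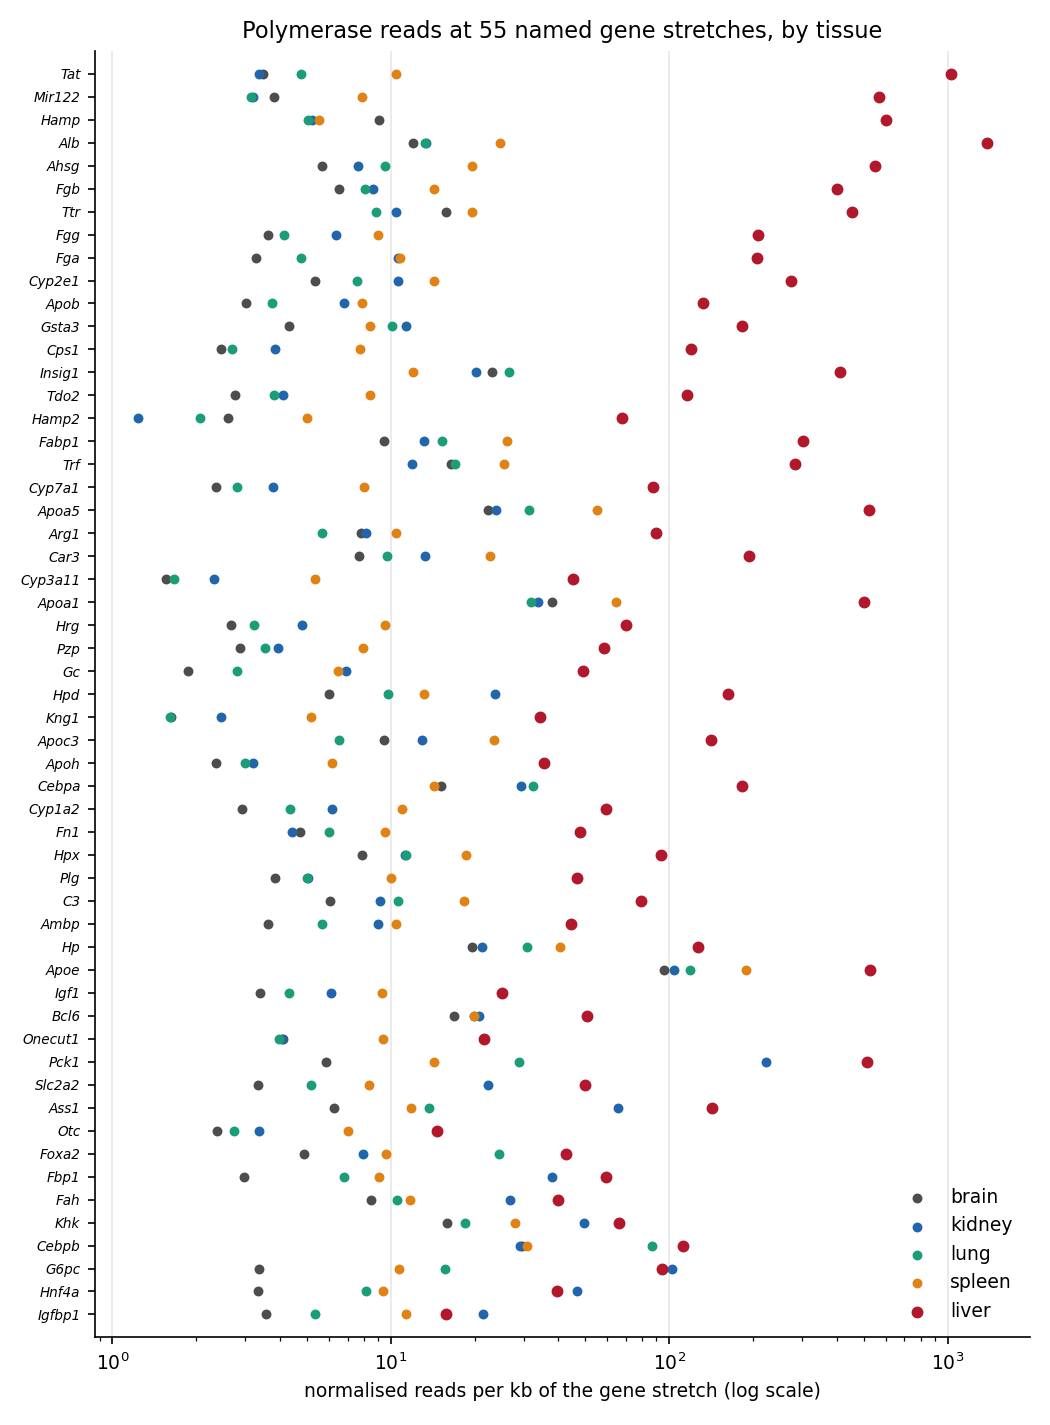
Normalised reads per kb (horizontal axis, log scale) at the 55 named gene stretches other than markers of other tissues, ordered by the fold of liver over the next highest tissue, with 1 point per tissue and liver in red. Liver stands apart at the top, from Tat at 1032 against 10.4 in spleen, while at the foot the kidney point lies at or beyond the liver point, as for Hnf4a at 39.4 in liver and 46.8 in kidney.

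Plasma carrier proteins were the group with the most liver reads. Alb, which encodes serum albumin, held 29020 liver reads, 221 brain reads, 262 kidney reads, 270 lung reads and 295 spleen reads. On the scaled level the liver excess over spleen, the next tissue, was 56.5-fold (95% exact interval 50.4 to 63.6). Liver alone was high, and the other 4 tissues averaged between 12 and 24.6 normalised reads per kb against 1389 in liver. Their reads were not spread evenly along Alb. At 8.5 kb from its left end, spleen reached 252, lung 178, kidney 129 and brain 105, against 18 or less in the bins on either side. All 4 rose together at 2.75 and 4 kb as well. The averages and the fold over spleen include these narrow shared peaks, whose cause was not tested. Ahsg, the carrier fetuin-A, held 6402 liver reads against 130 in spleen, 107 in lung, 83 in kidney and 58 in brain, a 28.3-fold excess. Ttr, the thyroid hormone and retinol carrier transthyretin, held 5269 liver reads and 100 to 162 reads elsewhere, a 23.3-fold excess. Of the 8 carriers placed, of 18 listed, 7 were liver-high. The exception was Hp, which encodes haptoglobin, with 883 liver reads and a fold of 3.13 over spleen, and 4.1 without spleen. Trf, the iron carrier transferrin, exceeded spleen 11.2-fold. Gc, the vitamin D carrier, was the only one of the 8 with kidney next on this scaling, at 7.09-fold. Ambp, also among the 8, stood at 4.29-fold over spleen. Kidney became its next tissue by total reads (4.89) and above the median level of 10 kb bins (7.66).

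The fibrinogen genes Fga, Fgb and Fgg encode the chains of the clot protein. Fgb held 4204 liver reads against 86 in spleen, 82 in lung, 84 in kidney and 60 in brain, a 28.1-fold excess over spleen. Fgg stood at 23.1-fold and Fga at 19.2-fold. Liver was high and the 4 other tissues were low at each of the 3 genes. All 4 coagulation genes placed from recalled positions, of 18 listed, were liver-high, down to Plg, the plasmin precursor, at 4.66-fold (7 with scaling by total reads). Hrg, recognised at a run and so liver-high by choice, stood at 7.35-fold. Of 20 listed protease inhibitors 2 were placed: Pzp, from a recalled position, was liver-high at 7.32-fold (11.3 by total reads), and Kng1, recognised at a run, stood at 6.65-fold. C3, the central complement component and the 1 complement gene placed, was liver-high at 4.33-fold.

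Apob, the structural protein of low-density lipoprotein, held 6290 liver reads against 216 in spleen, 173 in lung, 302 in kidney and 127 in brain, and exceeded spleen 16.7-fold. Of 5 lipoprotein genes placed from recalled positions, of 20 listed, 4 were liver-high, among them Apoa5 at 9.47-fold and Apoa1 at 7.78-fold. Fabp1, the liver fatty acid binding protein, and Apoc3 were recognised at runs, and stood at 11.6-fold and 6.01-fold. Apoe was the exception, with 3046 liver reads against 490 to 671 elsewhere and a fold of 2.77 over spleen, and 4.4 without spleen. Its level in the other 4 tissues, 95.5 to 189 normalised reads per kb, was above that of each other gene in the group.

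Tat, tyrosine aminotransferase, the first enzyme of tyrosine breakdown, had the largest fold of the named genes on the scaled counts. Above the median level of 10 kb bins, Mir122 (521-fold) and Cps1 (484-fold) exceeded Tat (359-fold). Those folds divide by the few reads left in the next tissue after the bin level was subtracted, and have no interval. Tat held 13175 liver reads against 76 in spleen, 59 in lung, 40 in kidney and 39 in brain, a 99.5-fold excess over spleen (79.5 to 126). In kidney, Tat was below the median 10 kb bin of that tissue, at 3.35 against 3.69 normalised reads per kb. It was above that level in brain (3.46 against 2.73), lung (4.76 against 2.84) and spleen (10.4 against 7.5). Tdo2, which opens the tryptophan ring, stood at 13.8-fold (21.4 by total reads) and Hpd, a later step of tyrosine breakdown, at 6.9-fold over kidney. Fah, the last step of tyrosine breakdown, held 1157 liver and 730 kidney reads, 1.48-fold. Thus 3 of 4 placed genes of amino acid catabolism were liver-high, and kidney was next in 2.

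In the urea cycle, Cps1, the mitochondrial entry enzyme, held 16584 liver reads against 614 in spleen, 359 in lung, 494 in kidney and 299 in brain, a 15.5-fold excess. Arg1, the arginase that releases urea, stood at 8.63-fold. Ass1, which joins citrulline and aspartate, held 8421 liver and 3632 kidney reads, 2.17-fold, and 327 to 789 elsewhere. Otc held 1193 liver reads over 70 kb and stood 2.1-fold over spleen, or 3.25-fold by total reads. Spleen at Otc, 6.99 normalised reads per kb, was below its median over 10 kb bins, 7.5, and liver stood at 14.7. Without spleen the fold was 4.37, over kidney, so the call changed. Above the bin level the fold was 165, against tissues at the set minimum of 3 reads.

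None of the 5 placed genes of sugar metabolism was liver-high, and kidney was next in all 5. Pck1, the cytosolic enzyme that commits carbon to gluconeogenesis, held 4755 liver reads and 1933 kidney reads, but 48 in brain, 260 in lung and 76 in spleen. G6pc, glucose-6-phosphatase, held 1418 liver and 1436 kidney reads, and its scaled level in liver was 0.922 times that in kidney (0.857 to 0.993). Pck1 came closest to the threshold, at 2.3-fold. Slc2a2 stood at 2.23-fold, Fbp1 at 1.56-fold and Khk at 1.33-fold. Over the mean of the 4 others, 3 of the 5 were at least 4-fold higher in liver.

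Cyp7a1, the rate-limiting enzyme of bile acid synthesis and the only gene of its list placed, held 1218 liver reads against 29 to 64 elsewhere, a 10.9-fold excess (16.9 by total reads). Of 30 listed genes of drug metabolism 4 were placed. The 3 from recalled positions were liver-high: Cyp2e1 at 19.1-fold, Cyp3a11 at 8.45-fold (13.1 by total reads) and Cyp1a2 at 5.38-fold (8.32). Gsta3, recognised at a run, stood at 16.1-fold. Reads of close gene copies, as in the Cyp3a, Gsta and hepcidin families, may have been placed on either copy, since how the aligner handled reads with several hits is not known from these sources. Insig1, a sterol-regulated inhibitor of lipid synthesis, stood at 15.4-fold over lung and was recognised at a run.

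Hamp, which encodes the iron hormone hepcidin, held 2088 liver reads against 11 in spleen, 17 in lung, 17 in kidney and 28 in brain. Its fold over brain, the next tissue, was 65.9, with an interval of 45.5 to 99.4. Its neighbour copy Hamp2 held 235 liver reads and 4 to 10 elsewhere. Mir122, the stretch of the liver microRNA miR-122, held 7238 liver reads against 38 to 58 elsewhere, a 71.6-fold excess. Hamp2 and Mir122 were recognised at runs. Igfbp1 was low, with 110 liver and 139 kidney reads. Igf1 stood at 2.7-fold over spleen, and passed 4-fold by total reads (4.06), without spleen (4.12) and above the bin level (8.77). Outside these groups, Car3, a carbonic anhydrase, stood at 8.51-fold and Fn1, the matrix protein fibronectin, at 5.04-fold, both over spleen and both recognised at runs.

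Of 20 listed transcription factors known for driving hepatocyte genes 5 were placed, and 1 was liver-high, Cebpa, with 846 liver reads and a fold of 5.62 over lung. Hnf4a held 3246 liver and 3602 kidney reads, 0.842-fold (0.803 to 0.883), so kidney was the higher on this scaling. Foxa2 stood at 1.74-fold and Cebpb at 1.28-fold, both over lung, and Cebpb turned to 0.958 with scaling by total reads. Onecut1 stood at 2.3-fold over spleen, and at 3.56 by total reads, 5.26 without spleen and 9.41 above the bin level. Bcl6, a repressor that is not on the list and was recognised at a run, stood at 2.45-fold over kidney.

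The share of the libraries in the named genes was small. The Alb stretch held 0.194% of the whole liver library and at most 0.00249% of any other. Alb, Cps1 and Tat together held 0.393%, and the 10 stretches with the most liver reads held 0.715% in liver, 0.041% in kidney and at most 0.025% in brain, lung and spleen. All 55 liver gene stretches, 1.25 Mb of sequence, held 1.3% of the liver library, 0.161% of kidney and at most 0.101% of the others. Since many stretches follow the liver signal, their lower share elsewhere is no measure of concentration, which is given over windows.

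Among windows, 8 held at least 500 normalised reads in every tissue, and shares are given here without them, a choice made after the data were seen. Over all liver windows the leading 10, 100 and 1000 held 2.02%, 5.53% and 16.6%. Of the reads in liver windows, 1.02% lay in the 10 windows with most reads, 4.29% in the leading 100 and 15.4% in the leading 1000. For each other tissue, over its own windows, the leading 1000 held 16.6% in spleen, 9.93% in lung, 7.15% in kidney and 6.79% in brain. Liver was thus above brain, kidney and lung, and spleen was above liver at 10, 100 and 1000 windows. Above the level 1 to 5 kb away, spleen was above liver at 10 and 100 windows, and at 1000 windows liver held 19.7% and spleen 19.5%, as the curve of shares against the number of windows shows. The tissues differed in the number of windows, from 31139 in spleen to 88467 in brain. It took 10009 liver windows, 17.9% of them, to hold 50% of the liver window reads, against 27.6% of windows in spleen, 23% in lung, 27.5% in kidney and 26.3% in brain. With at most 1 read counted per position and strand, the leading 1000 windows held 13% in liver and 14% in spleen.

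**Figure D3:**
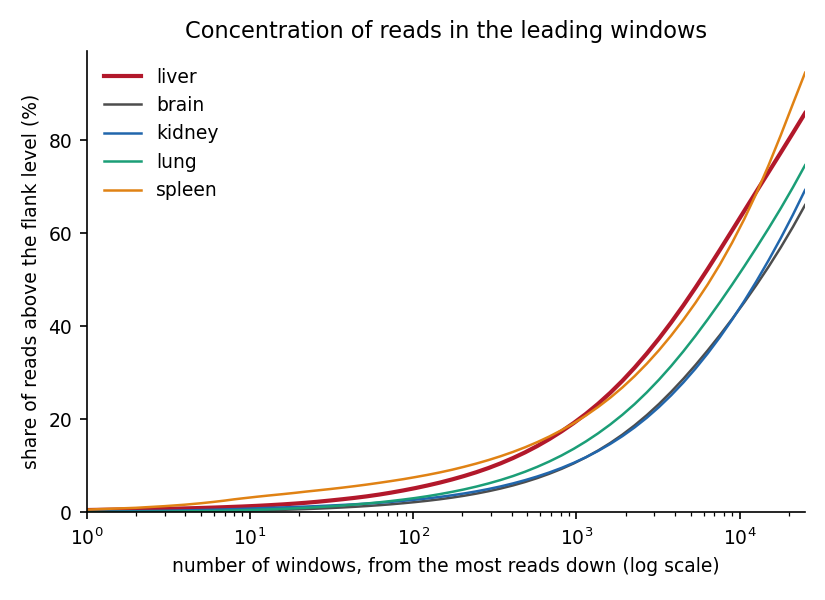
Share of window reads above the level 1 to 5 kb away (vertical axis, %) held by the leading windows of each tissue (horizontal axis, number of windows, log scale), 1 line per tissue over its own windows, without those of at least 500 normalised reads in every tissue. The leading 1000 windows held 19.7% in liver, 19.5% in spleen, 14% in lung, 10.9% in kidney and 10.8% in brain.

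Repeated reads touched the strongest sites. In the Alb stretch 43% of liver reads repeated the position and strand of another, against 8.87% in the liver library, and counting each position once gave a 50.2-fold excess in place of 56.5. For Tat the share was 34.3% and the fold 77.6. The liver-high window with the most liver reads lay at chr7:38980106-38980606 and was not tied to a gene. It held 5245 liver reads on 753 of 1002 possible positions, against 41 in spleen, 141 in lung, 470 in kidney and 36 reads in brain. Its fold over kidney was 10.4 as counted and 2.18 with 1 read per position. With most positions filled, the second count is near its ceiling and cannot decide the call.

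Liver-high windows lay in runs. Joined over gaps of up to 5 kb, 2374 of the 3807 (62.4%) fell in 320 runs of at least 3 windows. The median run spanned 8.55 kb (quartiles 5.45 and 13), 38 runs spanned at least 20 kb and the longest, at Cps1, spanned 118 kb with 93 windows. The runs covered 3.57 Mb and held 2.93% of the liver library, against 0.189% of brain, 0.256% of kidney, 0.244% of lung and 0.189% of spleen. Because runs were built only from windows called liver-high, the lower shares elsewhere follow from that choice. All liver windows were not joined by the same rule, so 62.4% has no background value. The 10 runs with most reads held 25.2% of all run reads and the Alb run alone 6.53%. Named stretches accounted for 46 runs and 38% of the run reads.

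The other 274 runs are given by position only. The one with most reads, chr11:120666951-120685451, held 8502 liver reads in 16 windows against 338 in spleen, 702 in lung, 563 in kidney and 607 in brain, 11.7-fold over lung. Next came chr9:107552301-107581201 with 7507 liver reads (16.7-fold over spleen), chr19:44468856-44482106 with 7403 (15.7-fold over lung) and chr11:60013391-60023991 with 7292 (15.1-fold over kidney). A short run at chr9:21639911-21643311 held 4627 liver reads in 3.4 kb against 24 to 69 elsewhere, 62.6-fold over kidney and 40.5-fold with 1 read per position. By windows, the run after Cps1 was chr6:141577896-141640046, with 46 windows over 62.2 kb and 3971 liver reads.

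Read density along the genes varied between them. For the 20 of 30 liver-high stretches of at least 10 kb that had a strand in the RefSeq table, density was compared between the first 15%, the middle 50%, the last 15% and the 3 kb after the stretch. The first part stood at a median of 1.25 times the middle (0.0501 to 2.37), and in 8 of 20 it was below the middle. The last part stood at 0.732 times the middle, and the 3 kb after it at 0.147 times, below the middle in all 20. The drop was small at Ambp (0.953) and partial at Gc (0.492), C3 (0.479) and Apob (0.411). Since edges often follow the signal, the drop after the stretch is partly set by the choice of edges. The ratios of the first and last parts depend on the edges too. At Ambp the first part held 13.9 reads per kb against 54.9 in the middle. Such low first parts, counted in the 8 of 20, cannot be told apart from edges placed before the reads begin.

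**Figure D4:**
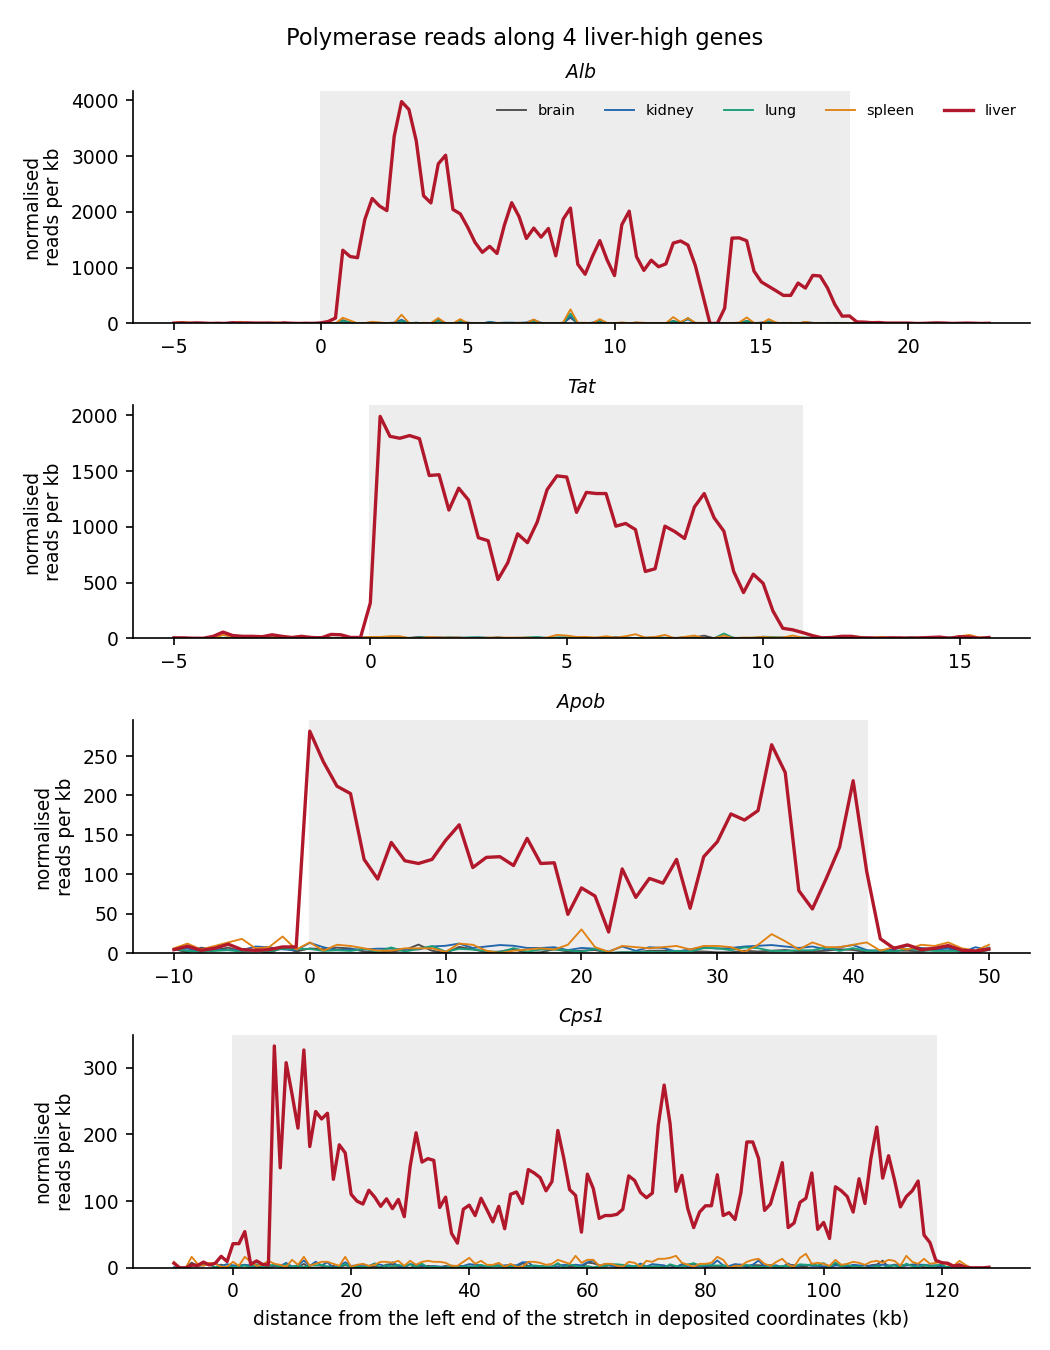
Normalised reads per kb (vertical axis) along Alb, Tat, Apob and Cps1 in liver (red) and the 4 other tissues, by distance in kb from the left end of the stretch in deposited coordinates (horizontal axis), with the stretch shaded. Liver reads lie mostly inside the shaded stretches, at up to 3976 at Alb, but reach 103 in the bin after the Apob stretch. Liver falls to 0 at 13.25 and 13.5 kb of Alb, where every other tissue is at 0 too. At Cps1 it falls to 4.31 at 6 kb, before the rise to 332 at 7 kb. No other tissue exceeds 252 at Alb or 42.6 at the other 3 genes.

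The ratios along Alb, Tat and Apob differed, in part with the edges, and Cps1 had no strand in the table. At Alb the first 15% held 1589 liver reads per kb, the middle 1620 and the last 678, with 24.3 in the 3 kb after it. The Alb stretch began before the reads did. Its bins at 0, 0.25 and 0.5 kb held 10.34, 34.45 and 96.47 normalised liver reads per kb, and the bin at 0.75 kb held 1312.65. Its first part is lowered by that edge, so it cannot be set against Tat as a difference in shape. At Tat the first part was the highest, 1844 against 1171 in the middle and 384 at the end, with 13 after it. Apob held 223, 120 and 163 in the same order, so both ends were above the middle. Fabp1, with 33.3 in the first part and 537 in the middle, and Cyp3a11, with 3.73 and 74.5, had their reads begin inside the stretch.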

How the data were processed

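RNA polymerase II chromatin immunoprecipitation was sequenced in 5 tissues, 1 library each. The authors deposited, per tissue, a list of aligned reads and a list of peak positions without a score. Bowtie was used, per the submitters' processing notes. For its version and settings, the peak caller and the build, the sources used here give nothing. Coordinates were treated as mm9 and never converted. Each read was counted once at its 5′ end. Scaling, calls and runs are defined in the report; fold intervals are 95% exact conditional binomial intervals, and shares have exact binomial ones. No p-value was computed. The window call was tested on simulated data. Those held counting error only, so the test does not cover variation between libraries or background that differs between tissues. Members, gene lists and stretches were chosen with earlier results of these data known. Of each list the 3 liver-high genes with the largest fold and up to 2 others with most reads were named, with further genes chosen after their values were seen. Gene names rest on general knowledge, since no annotation of the files' build was used. An earlier, larger set of names was cut, after its values had been seen, because some positions had been reached by shifting GRCm38 coordinates. Results for some other genes are not reported here. Promoters are from RefSeq, GRCm38.p6, with 45 of 58 symbols matched. Alternatives are in the closing section. Work was done in Python 3.11.15 with SciPy 1.17.1, pandas 2.3.3, Matplotlib 3.10.9 and NumPy 2.4.6.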

Additional observations from a re-analysis of the deposited data

How the results depend on the processing

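No paired analysis was possible because each tissue had 1 library, which also left no replicate to leave out. Of 88 alternative values of counts and shares, 46 stayed within 1.5 times the count or within the counting interval of the share, among them all values for runs and for liver-high gene stretches. Windows liver-high over the next highest tissue, over the mean of the other 4, over brain, over kidney, over lung and over spleen numbered, in this order, 1366, 2473, 3469, 2079, 3340 and 2855 with 100 bp to both sides, and 1821, 2722, 3260, 2137, 3069 and 3258 with at least 50 liver reads. At 2-fold the counts became 9160, 14672, 16333 (brain, within 1.5 times), 12255, 16057 and 15768, and at 8-fold the counts were 1113, 2296, 5017, 2685, 4650 and 2384. With no read minimum the counts over brain, kidney and lung were 17502, 9707 and 17025, and thinned to the smallest library 7015, 4132 and 6438. With scaling by total reads the count over spleen was 12811. Shares in the leading 10, 100 and 1000 windows were 2.02%, 5.53% and 16.6% over all liver windows as counted. They became 0.516%, 3.01% and 13.1% with 1 read per position, and 2.38%, 7.16% and 20.4% with 500 bp to both sides. Above the level 1 to 5 kb away they were 2.95%, 7% and 21.3%, and without the windows high in every tissue 1.02%, 4.29% and 15.4%. That last alternative, and gene stretches above the level of 10 kb bins, were chosen after seeing the data. Of 275 gene folds under alternatives, 265 stayed on the same side. Cebpb reversed, from 1.28 to 0.958 with scaling by total reads. Without spleen, Hp (4.1), Apoe (4.4), Otc (4.37), Onecut1 (5.26) and Igf1 (4.12) passed 4-fold; Igf1 also did with scaling by total reads (4.06), and above the level of 10 kb bins Otc (165), Onecut1 (9.41) and Igf1 (8.77) did. Above that level 28 of 55 folds were more than 1.5 times higher and none more than 1.5 times lower. The cause of these changes was not tested. Depth limits the calls to windows with at least 20 liver reads, 25400 of 55887.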
